A study of Arabidopsis thaliana with 48 samples.

Results

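miR858a and miR858b are a pair of 21 nt plant microRNAs whose known targets are transcripts of R2R3-MYB transcription factors, among them the regulators of flavonol synthesis. They were taken by name from the deposited 21 nt tables, and they are 2 of the 428 annotated miRNAs listed there. Both were picked because their mutant values lay far below wild type in these libraries. The values that compare mutants with wild type therefore chose the members, and they are given as a description with no test. The libraries came from closed flower buds of Arabidopsis thaliana grown on soil under long days without treatment. The plants were Col0 wild type and the mutant lines atprmt5-2 and atprmt5-6, which carry different alleles of the gene for PRMT5, a protein arginine methyltransferase. Small RNA was taken from the total bud extract (total) and from the material that an anti-AGO1 antibody pulled down from such extracts (AGO1-IP), with 2 libraries per genotype and fraction and 12 in all. The submitters call them biological duplicates, and the labels number them 1 and 2 in total and 1 and 3 in AGO1-IP. The kind of lesion in each allele is not stated in the sources used here, and the tables hold no mRNA, so the loss of PRMT5 could not be checked.

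Plant miRNAs are cut from a folded precursor by DCL1 and loaded mainly into AGO1, which favours guides that begin with U. The loaded guide pairs almost fully with its target, which AGO1 cuts, or keeps from being translated. For miR858 the best known targets are MYB11, MYB12 and MYB111, activators of the flavonol branch of phenylpropanoid metabolism. Flavonols accumulate in pollen and in the tapetum that feeds it.

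The mature sequences are shown because the 2 guides are nearly the same molecule, which bears on how their reads can be told apart. Both begin with U, and the capitals mark the seed, bases 2 to 8 from the 5′ end.
miR858a: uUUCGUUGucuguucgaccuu
miR858b: uUCGUUGUcuguucgaccuug
The sequences were read from RefSeq's TAIR10.1 genome and annotation. miR858b starts 1 base further along than miR858a, and 20 of the 21 bases are shared, so the seeds differ by a shift rather than by a substitution. miR858a lies at chr1:26773695-26773715 on the minus strand in MIR858a (AT1G71002), as bases 11 to 31 of the 187-base precursor transcript. miR858b lies at chr1:26772907-26772927 on the plus strand in MIR858b (AT1G09213), as bases 275 to 295 of a 303-base precursor transcript. The 2 genes face each other with 603 bases between the precursors, and the annotated long noncoding RNA AT1G09207 overlaps the MIR858b precursor on the other strand without reaching the mature part.

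The stretches of both precursors around the guides are set side by side to show which reads each could give, with capitals for bases that are equal in both.
MIR858a, chr1:26773691-26773718, minus strand: TtgtTTCGTTGTCTGTTCGACCTTGGtc
MIR858b, chr1:26772903-26772930, plus strand: TatcTTCGTTGTCTGTTCGACCTTGGct
The sequence named miR858a occurs 1 time in the 5 nuclear chromosomes. The sequence named miR858b occurs 2 times, since the MIR858a precursor holds it as well. At the place of miR858a, the MIR858b precursor differs by T1C, counted from the 5′ end of the miRNA. Reads named miR858b can therefore come from either gene, reads that match miR858a exactly can come from MIR858a alone, and the 2 values are not independent. How many mismatches the mapping allowed is not stated in the sources used here. In the fold predicted by RNAfold, 19 of the 21 miR858a bases pair with bases downstream of them in MIR858a, and 14 of the 21 miR858b bases pair with bases upstream in MIR858b, so the guides lie on opposite arms.

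The match to MYB transcripts was described by a search of the annotated mRNAs of 31460 genes, 147 of them named MYB. A mismatch cost 1 and a G:U pair 0.5, each doubled at miRNA bases 2 to 13, and sites up to a cost of 4 were kept. miR858a matched 14 genes, all named MYB, and miR858b matched 23 genes, 22 of them named MYB. The other was CLC-B (AT3G27170). Between them they matched 24 genes, and 13 were matched by both. All these sites lay in coding sequence. The 3 flavonol regulators were among them, and their miR858a sites are shown with capitals for bases that form Watson-Crick pairs with the guide.
MYB12 (AT2G47460), chr2:19478416-19478436, plus strand: cAGGgaGAACAGACAACGAAA
MYB111 (AT5G49330), chr5:19999866-19999886, minus strand: cAGGaaGAACAGACAACGAAA
MYB11 (AT3G62610), chr3:23155629-23155649, plus strand: cgGGaaGAACAGACAACGAAA
The bases without a Watson-Crick pair, among them a G:U pair in MYB11, lie toward the 3′ end of the guide in each of them. TT2, a regulator of proanthocyanidins in the seed coat, and MYB83, a regulator of secondary walls, also held a site for both guides. These matches are descriptions of sequence, and the target transcripts were not measured in these tables.

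Depth ran from 571191 to 1397552 reads of 21 nt in the total libraries and from 3750509 to 8166912 in the AGO1-IP libraries. Levels are given in the deposited unit, RPM, the reads of a miRNA scaled by the 21 nt reads of its library. The miRNA share of these reads was 23.0% to 32.9% in total and 70.5% to 74.8% in AGO1-IP, which sets how any level compares between fractions. The shallowest library was wild-type total replicate 1, where 1 read was worth 1.75 RPM. Intervals on single libraries are exact Poisson intervals at 95% and cover counting error only.

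In total small RNA, miR858a stood at 317 RPM (interval 272 to 367, from 181 reads) and 156 RPM (136 to 179, from 206 reads) in the wild-type libraries. The atprmt5-2 libraries held 68.1 and 88.9 RPM, and the atprmt5-6 libraries 67.3 and 75.2 RPM. All 4 mutant libraries lay below both wild-type libraries, and the wild-type libraries themselves differed by 2.03-fold, with intervals that did not overlap. miR858b stood at 145 and 97.1 RPM in wild type, from 83 and 128 reads. It was at 24.5 and 26.3 RPM in atprmt5-2 and at 31.5 and 39.5 RPM in atprmt5-6, again with the mutant libraries below both wild-type libraries. Of the 128 miRNAs of mean RPM of at least 5, 42.2% showed this order in total. In buds, fewer cells that make miR858 and less miR858 per cell cannot be told apart.

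The AGO1-bound pool rested on 115 to 2070 reads per value, against 29 to 206 in total. miR858a stood at 309 RPM (interval 296 to 323, from 2070 reads) and 255 RPM (243 to 266, from 1934 reads) in wild type. It was at 81.6 and 89.7 RPM in atprmt5-2 and at 98.0 and 139 RPM in atprmt5-6. miR858b stood at 125 and 99.9 RPM in wild type, at 30.7 and 40.7 RPM in atprmt5-2 and at 35.6 and 53.2 RPM in atprmt5-6. For both guides the 4 mutant libraries lay below both wild-type libraries here too, an order that 22.7% of the 128 miRNAs showed in AGO1-IP.

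**Figure D1:**
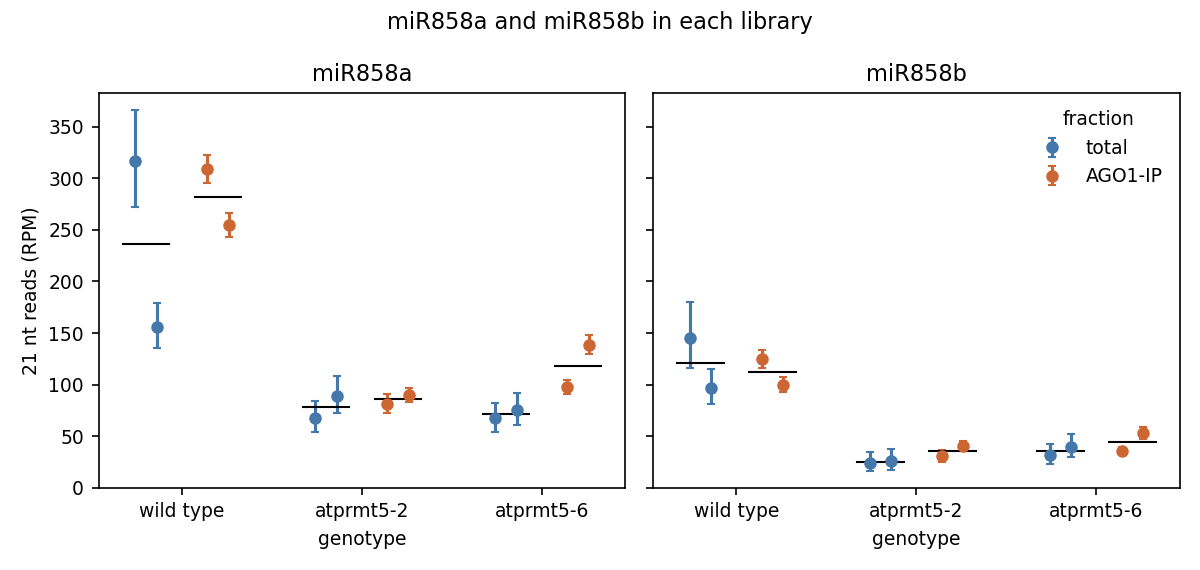
RPM of 21 nt reads of miR858a and miR858b (vertical axis, linear from 0) by genotype, with total in blue and AGO1-IP in orange. Points are libraries with exact Poisson intervals at 95%, and black lines are group means. All mutant points lie below the wild-type points of the same fraction, as for 42.2% (total) and 22.7% (AGO1-IP) of the 128 tested miRNAs. The wild-type total libraries of miR858a stand at 317 and 156 RPM.

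Ranked by group mean, miR858a was highest in wild-type AGO1-IP at 282 ± 38.5 RPM (SD, n = 2 in each group), followed by wild-type total at 237 ± 114 RPM, and the libraries of these groups overlapped. Then came atprmt5-6 AGO1-IP at 118 ± 28.9 RPM, whose libraries lay clear of both neighbours in this order. The lowest 3 groups were atprmt5-2 AGO1-IP at 85.7 ± 5.76 RPM, atprmt5-2 total at 78.5 ± 14.7 RPM and atprmt5-6 total at 71.2 ± 5.601 RPM, and each of them overlapped the next. miR858b was highest in wild-type total at 121 ± 34.1 RPM and wild-type AGO1-IP at 112 ± 17.6 RPM, which overlapped. It was at 44.4 ± 12.4 RPM in atprmt5-6 AGO1-IP, 35.7 ± 7.12 RPM in atprmt5-2 AGO1-IP and 35.5 ± 5.69 RPM in atprmt5-6 total, and neighbours among these overlapped. The lowest level of miR858b was 25.4 ± 1.24 RPM in atprmt5-2 total, where both libraries lay below those of atprmt5-6 total. The Poisson intervals of these miR858b libraries overlapped between the alleles. For neither guide was the share of all tested miRNAs that separated in this order counted.

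By abundance miR858a ranked 41st of 195 and 46th of 233 listed miRNAs in the wild-type total libraries and 39th of 241 and 40th of 233 in wild-type AGO1-IP. In the mutants its rank lay between 47 and 60. miR858b ranked 49 to 54 in the wild-type libraries and 55 to 80 in the mutant ones. As a share of miRNA reads rather than of all 21 nt reads, miR858a made up 0.126% and 0.0586% in wild-type total and 0.0413% and 0.0341% in wild-type AGO1-IP.

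The difference of mutant from wild type was taken from a limma fit over the 128 miRNAs of mean RPM of at least 5, on log2(RPM + 1). It is given for miR858 with its SE and no p, because the members were chosen by it. In total, miR858a differed from wild type by -1.50 in atprmt5-2 and by -1.63 in atprmt5-6 (SE 0.35 each). miR858b differed by -2.18 and -1.72 (SE 0.31 each). These values lay below the median of all tested miRNAs, which stood at -0.44 in atprmt5-2 and -0.67 in atprmt5-6. Relative to it, miR858a was at -1.06 and -0.96 and miR858b at -1.74 and -1.05.

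In AGO1-IP the medians of all tested miRNAs lay near 0, at 0.04 in atprmt5-2 and -0.14 in atprmt5-6. miR858a differed by -1.70 and -1.26 (SE 0.35 each), and miR858b by -1.63 and -1.34 (SE 0.31 each). Counted from the most lowered of the 128 tested miRNAs, miR858a and miR858b took places 1 and 2 in atprmt5-2 and 4 and 3 in atprmt5-6. In total they took places 7 and 2 in atprmt5-2 and 4 and 3 in atprmt5-6. Of all tested miRNAs, 42.2% in total and 22.7% in AGO1-IP had all 4 mutant libraries below both wild-type libraries. Both alleles are set against the same wild-type libraries in each fraction, so the 2 sets of values are not independent.

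**Figure D2:**
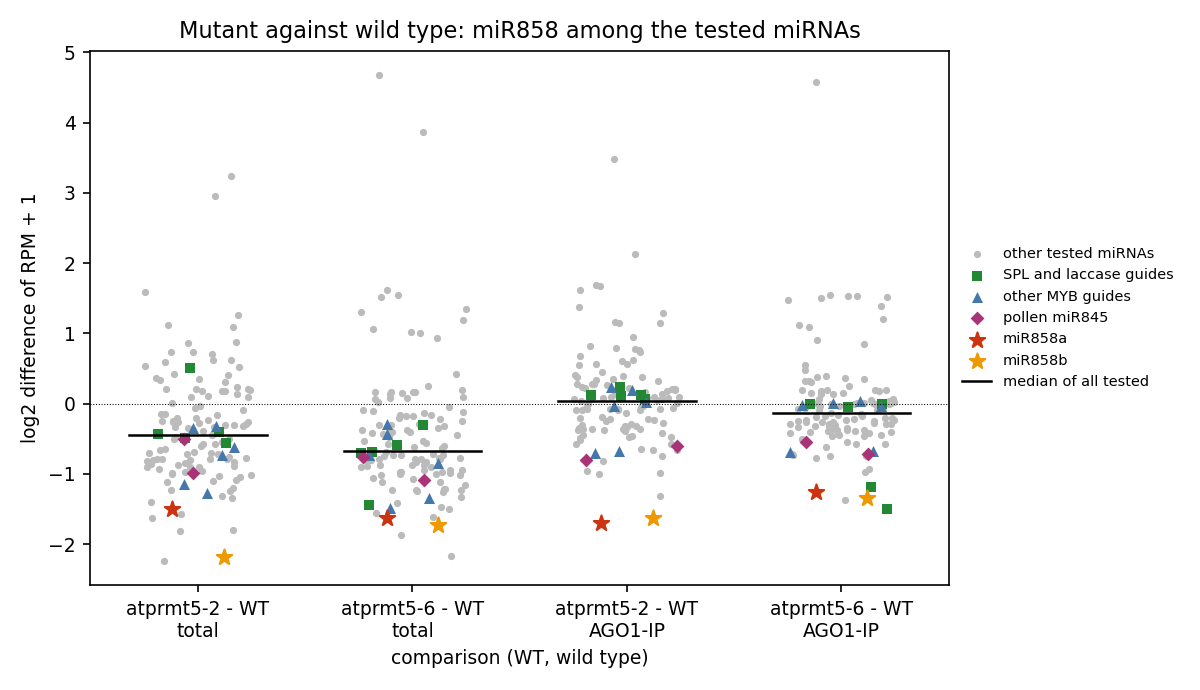
Log2 difference of RPM + 1 between each mutant and wild type (vertical axis) for the 128 tested miRNAs, in total and in AGO1-IP. Each symbol is 1 miRNA, stars are miR858a and miR858b, and black lines are medians of all tested miRNAs. The stars lie between -2.18 and -1.26, near the lower end of each column, while the median runs from -0.67 to 0.04.

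Wild-type total replicate 1, the shallowest library, carried the higher miR858a value. Without it the miR858a difference in total was -0.997 in atprmt5-2 and -1.13 in atprmt5-6, and without wild-type total replicate 2 it was -2.01 and -2.14. Both guides stayed below wild type in all 4 comparisons under every alternative that was run. The size of the difference in total depended on the scaling: centred on the median miRNA, miR858a stood at -0.96 and -0.84 and miR858b at -1.64 and -0.93.

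The pollen miRNAs miR845a and miR845b, which guide the silencing of transposons in pollen, are given here because closed buds hold developing pollen. Both were listed, and both passed the filter. miR845a was lower in all 4 mutant libraries than in both wild-type libraries of each fraction. The same order held for 42.2% of all tested miRNAs in total and 22.7% in AGO1-IP. miR845b, the scarcer guide, showed it in total, where its lower wild-type value, 5.25 RPM in replicate 1, was 3 reads. The nearest mutant value was 4.75 RPM in atprmt5-2 replicate 1, so this order lies within counting error. In AGO1-IP miR845b stood at 8.96 and 12.9 RPM in wild type and at 4.799 and 9.298 RPM in atprmt5-2, which overlap. Their summed level was 78.8 to 85.7 RPM in wild-type total, against 41.7 to 42.0 RPM in atprmt5-2 and 33.3 to 44.4 RPM in atprmt5-6. In AGO1-IP it was 91.2 to 94.2 RPM in wild type, 49.9 to 56.8 RPM in atprmt5-2 and 58.4 to 66.1 RPM in atprmt5-6. In total 1 of the 2 was called lower in each allele, against 12.5% and 16.4% of all tested miRNAs. miR845a fell by a log2 difference of -0.99 in atprmt5-2 (limma adjusted p = 0.0241) and -1.09 in atprmt5-6 (adjusted p = 0.0127), calls that were lost with centring, TMM, DESeq2 or only the groups compared in the fit. miR845b stood at -0.51 (adjusted p = 0.383) and -0.76 (adjusted p = 0.143) in total. Leaving out 1 library, the difference of miR845a ran from -1.03 to -0.95 in atprmt5-2, where the call was lost without either wild-type total library, either wild-type AGO1-IP library or atprmt5-2 total replicate 2. It ran from -1.30 to -0.88 in atprmt5-6, where the call was lost without wild-type total replicate 1 or atprmt5-6 total replicate 2. In AGO1-IP miR845a stood at -0.81 (limma adjusted p = 0.0923) and -0.54 (adjusted p = 0.271), and miR845b at -0.61 (adjusted p = 0.549) and -0.72 (adjusted p = 0.444). There limma called 1.56% and 0.0% of all tested miRNAs lower. With edgeR and TMM, miR845a was called lower in atprmt5-2 AGO1-IP, as were 4.69% of all tested miRNAs. The part of pollen content in the miR858 values was not tested.

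Loading, meaning the AGO1-IP level minus the total level of a genotype on the log2 scale, was not used to choose the members and was tested with limma over the same 128 miRNAs. With RPM of 21 nt reads, neither guide was called enriched or depleted in AGO1-IP in any genotype. In wild type, miR858a stood at 0.33 (SE 0.35, interval -0.44 to 1.11, adjusted p = 0.474) and miR858b at -0.09 (SE 0.31, interval -0.79 to 0.61, adjusted p = 0.815), around a median miRNA at 0.23. The wild-type background was 20.3% of miRNAs called higher and 20.3% called lower. The interval of miR858a leaves room for about the same level in both fractions as well as for more than 2-fold enrichment.

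In atprmt5-2 loading was 0.14 for miR858a (interval -0.64 to 0.91, adjusted p = 0.735) and 0.46 for miR858b (interval -0.24 to 1.16, adjusted p = 0.229), with a median of 0.62 over all tested miRNAs. There, 36.7% of the tested miRNAs were called higher and 18.8% lower. In atprmt5-6 it was 0.71 for miR858a (interval -0.07 to 1.48, adjusted p = 0.105) and 0.30 for miR858b (interval -0.40 to 1.00, adjusted p = 0.441), with a median of 0.69. There, 40.6% were called higher and 19.5% lower. Without wild-type total replicate 1 or replicate 2, the adjusted p of miR858a in atprmt5-6 was 0.0432 and 0.0429 at an unchanged 0.71. The loading of mutants and wild type differed by -0.20 (atprmt5-2) and 0.37 (atprmt5-6) for miR858a (SE 0.49 each), and by 0.55 and 0.38 for miR858b (SE 0.44 each). These differences reuse the values that chose the members and are given with no test.

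The sign of loading depends on what the reads are scaled to, because the miRNA share of 21 nt reads differed between the fractions. When RPM were rescaled to miRNA reads, all 6 loading values were negative, and those of miR858a (-1.19, limma adjusted p = 0.0368) and miR858b (-1.61, adjusted p = 0.00530) in wild type and of miR858b in atprmt5-6 (-1.10, adjusted p = 0.0437) were called. On that scale the median miRNA lay at -1.27 in wild type, -0.63 in atprmt5-2 and -0.65 in atprmt5-6. There, 4 miRNAs were called higher and 85 lower in wild type, against 26 and 26 by RPM. The mutants went from 47 and 24 to 3 and 46 (atprmt5-2) and from 52 and 25 to 3 and 51 (atprmt5-6). Centred on the median miRNA of each library, miR858a in wild type was called the other way, at 0.94 (limma adjusted p = 0.0372). On that scale 46.9% of all tested miRNAs were called higher and 18.0% lower in wild-type loading.

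**Figure D3:**
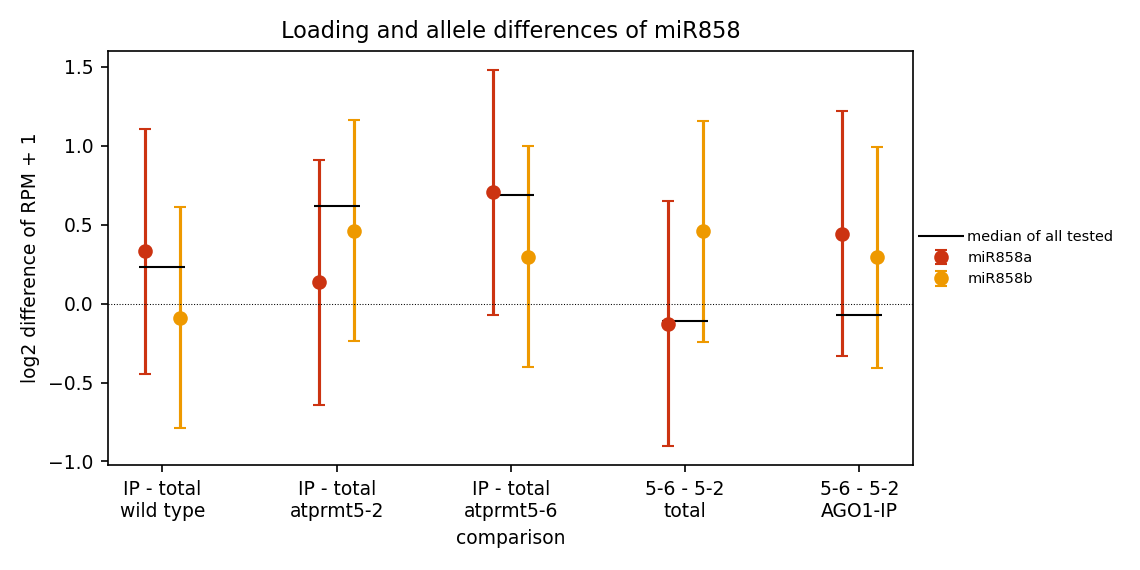
Log2 difference of RPM + 1 (vertical axis) of miR858a and miR858b for AGO1-IP minus total within each genotype (IP - total) and for atprmt5-6 minus atprmt5-2 within each fraction (5-6 - 5-2). Points are limma estimates with intervals at 95%, and black dashes are medians of all tested miRNAs. All 10 intervals cross 0.

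The 2 alleles were compared directly, a contrast the choice of members did not use. In total, atprmt5-6 differed from atprmt5-2 by -0.13 for miR858a (interval -0.90 to 0.65) and 0.46 for miR858b (interval -0.24 to 1.16), both with a limma adjusted p of 0.984. In AGO1-IP the difference was 0.44 for miR858a (interval -0.33 to 1.22) and 0.29 for miR858b (interval -0.41 to 0.99), both with an adjusted p of 0.979. The atprmt5-6 AGO1-IP libraries lay above both atprmt5-2 AGO1-IP libraries for miR858a, and the groups overlapped for miR858b. The share of all tested miRNAs that separated in this way between the alleles was not counted. The intervals of both guides cover equal levels as well as a difference between the alleles of about 2-fold. Of all tested miRNAs, limma called 0.0% between the alleles in total, with 7 at an unadjusted p under 0.05. It called 0.0% in AGO1-IP, with 1 below an unadjusted 0.05. The count tests of edgeR and DESeq2 called 0 in both fractions too.

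The ratio of miR858a to miR858b asks whether the guides moved apart, and it does not depend on how a library is scaled. In wild type the ratio was 2.18 and 1.61 in the total libraries and 2.48 and 2.55 in the AGO1-IP libraries. In atprmt5-2 it was 2.77 and 3.38 in total and 2.66 and 2.20 in AGO1-IP. The atprmt5-6 libraries gave 2.14 and 1.902 in total and 2.75 and 2.61 in AGO1-IP. miR858a was thus the more abundant guide in all 12 libraries, at 61.7% (exact binomial interval 56.2 to 66.9) to 77.2% (68.9 to 84.1) of miR858 reads.

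Averaged over genotypes, the log2 ratio was 0.16 higher in AGO1-IP than in total (exact two-sided permutation within genotype, 216 arrangements, p = 0.324), where the smallest p these arrangements can give is 0.00926. Averaged over fractions, it was 0.21 higher in the mutants than in wild type, a value that reuses the differences that chose the members and is given with no test. By genotype, AGO1-IP minus total was 0.42 in wild type and 0.41 in atprmt5-6 but -0.34 in atprmt5-2, and the fractions did not overlap in any of the 3. By fraction, atprmt5-2 stood 0.71 above wild type in total, without overlap, and -0.05 from it in AGO1-IP, where the groups overlapped.

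**Figure D4:**
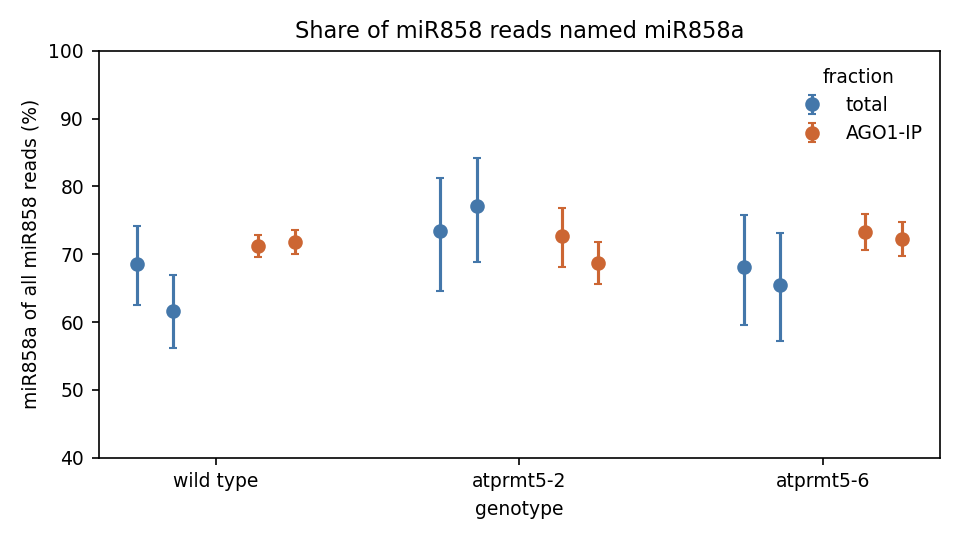
Share of all miR858 reads named miR858a (vertical axis, percent, starting at 40) by genotype, with total in blue and AGO1-IP in orange. Points are libraries with exact binomial intervals at 95%. The highest share, 77.2%, is an atprmt5-2 total library, the lowest, 61.7%, is a wild-type total library, and many intervals overlap.

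Other miRNAs that guide AGO1 to MYB transcripts were followed beside miR858. These were miR159, which targets the GAMYB-like factors MYB33 and MYB65, the related miR319, which mainly targets TCP factors, and miR828, which triggers siRNAs from MYB transcripts. Of the 7 names, 6 were listed and tested. miR828 was listed in none of the 21 nt or 22 nt tables, where up to 3 reads, or 5.25 RPM in the shallowest 21 nt library, would be allowed by counting error. miR319a and miR319b share 1 mature sequence, so their values are not independent.

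In total, 2 of the 6 fell in atprmt5-2 and 3 of 6 in atprmt5-6, and 0 rose. Over all tested miRNAs 12.5% and 16.4% were called lower, and 3.12% and 3.91% higher. The 2 that fell in both alleles were the less abundant members. miR159c stood at 436 and 301 RPM in the wild-type total libraries, 188 and 118 RPM in atprmt5-2 and 140 and 118 RPM in atprmt5-6. Its log2 difference was -1.28 (limma adjusted p = 0.0234) and -1.49 (adjusted p = 0.00912). miR319c went from 385 and 266 RPM in wild type to 157 and 133 RPM in atprmt5-2 and 139 and 112 RPM in atprmt5-6, at -1.14 (adjusted p = 0.0225) and -1.35 (adjusted p = 0.00662). miR319b fell in atprmt5-6 at -0.84 (adjusted p = 0.0270), a call that was lost with TMM, DESeq2, centring or only the groups compared in the fit. It was also lost without either wild-type total library, either atprmt5-6 AGO1-IP library or atprmt5-6 total replicate 2, with values from -0.93 to -0.75.

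The abundant miR159a stood at -0.32 and -0.29 in total and miR159b-3p at -0.34 and -0.44, with adjusted p between 0.143 and 0.287. The median of the 6 was -0.67 in atprmt5-2 and -0.78 in atprmt5-6, against -0.44 and -0.67 for all tested miRNAs. With RPM rescaled to miRNA reads, limma called 5 of the 6 lower in each allele, all but miR159a. That fit called 25.8% (atprmt5-2) and 35.9% (atprmt5-6) of all tested miRNAs lower. With replicate number as a block, 3 and 5 of the 6 were called lower, against 21.9% and 45.3% of all tested miRNAs. The calls of miR159c and miR319c were lost in both alleles with TMM, centring or only the groups compared in the fit, and in atprmt5-2 with DESeq2 too, though not their sign. In atprmt5-2 both calls were also lost without wild-type total replicate 1, atprmt5-2 total replicate 2 or either wild-type AGO1-IP library, with values from -1.61 to -0.94 and from -1.41 to -0.87 over all libraries left out. In atprmt5-6 they were lost without wild-type total replicate 1 or atprmt5-6 total replicate 2, with values from -1.75 to -1.22 and from -1.62 to -1.08. The scaling also turned the balance of calls over all miRNAs: in atprmt5-2, 4 miRNAs higher and 16 lower became 11 and 3 with TMM and 14 and 4 with centring. In atprmt5-6, 5 higher and 21 lower became 5 and 2 with TMM and 20 and 2 with centring.

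In AGO1-IP limma called 0 of the 6 in either allele, with 2 in each allele below an unadjusted 0.05, and both count tests called 0 as well. miR159c stood at -0.70 and -0.68 there and miR319c at -0.67 and -0.69, while the other 4 lay between -0.04 and 0.23. The median of the 6 was -0.01 and -0.03. For atprmt5-2 the background over all tested miRNAs was 2.34% called higher and 1.56% called lower. For atprmt5-6 it was 0.781% higher and 0.0% lower, with 23 miRNAs in either direction at an unadjusted p under 0.05 and 2 lower calls each by edgeR and by DESeq2.

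In loading, miR159a and miR159b-3p were called higher in AGO1-IP in every genotype. miR159b-3p went from 11623 and 10362 RPM in wild-type total to 35255 and 37530 RPM in wild-type AGO1-IP, a log2 difference of 1.73, and miR159a stood at 0.68 (limma adjusted p = 0.0174). Of the 6 members, limma called 2 higher in wild type and 5 in each mutant, and 0 lower, against 20.3%, 36.7% and 40.6% of all tested miRNAs called higher. With edgeR and TMM 1 member, miR159b-3p, was called higher in each genotype, and with DESeq2 the same guide alone, joined in atprmt5-6 by miR319c. Over all tested miRNAs the share called higher in wild type, atprmt5-2 and atprmt5-6 was 15.6%, 9.38% and 13.3% with TMM and 14.1%, 7.81% and 13.3% with DESeq2. The loading calls of miR159a, miR319a and miR319b were thus lost with both tools. In atprmt5-2 those of miR319a and miR319b were lost as well with only the groups compared in the fit. With RPM rescaled to miRNA reads, miR159b-3p dropped to 0.20 in wild type (limma adjusted p = 0.149), so the call was lost there, and it stood at 0.72 and 0.74 in atprmt5-2 and atprmt5-6, still called higher. On that scale the other 5 members were negative in all 3 genotypes. In wild type all 5 were called lower, miR159a at -0.84 (adjusted p = 0.00576), where 66.4% of all tested miRNAs were called lower. In each mutant 2 members were called lower on that scale, against 35.9% (atprmt5-2) and 39.8% (atprmt5-6) of all tested miRNAs. The wild-type call of miR159a was lost without wild-type total replicate 2 or either wild-type AGO1-IP library, with values from 0.49 to 0.88. The loading calls of miR319a and miR319b in atprmt5-2 were lost without atprmt5-2 total replicate 2, and that of miR319a also without atprmt5-2 AGO1-IP replicate 3. In atprmt5-6 both were lost without atprmt5-6 total replicate 2 or either atprmt5-6 AGO1-IP library.

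The guides of SPL and laccase transcripts formed a second list. Laccases help to polymerise lignin, another product of the phenylpropanoid pathway, and are targets of the copper guides miR397, miR408 and miR857. SPL factors, targets of miR156 and miR157, act on anthocyanin synthesis through MYB complexes. Of 18 names 7 were listed and 5 tested. None of the 10 miR156 names nor miR157d was listed in the 21 nt tables, and miR397a and miR857 fell below the filter. The deposited read lengths start at 21 nt, so a guide shorter than 21 nt would not be listed at any level. In the main limma fit 0 of the 5 were called in any comparison of mutant with wild type or of alleles. It had 0 below an unadjusted 0.05, and the count tests called 0. Over all tested miRNAs 12.5% (atprmt5-2) and 16.4% (atprmt5-6) were called lower in total, and at most 2.34% in either direction in AGO1-IP. With replicate number as a block in the fit, limma called 3 of the 5, the miR157 guides, lower in atprmt5-6 total. That fit called 45.3% of all tested miRNAs lower. The median of the 5 in total was -0.44 in atprmt5-2 and -0.69 in atprmt5-6, against -0.44 and -0.67 over all tested miRNAs.

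Within this list the miR157 guides, which share 1 mature sequence, lay close together. miR157a-5p was at 809 and 518 RPM in wild-type total, 580 and 334 RPM in atprmt5-2 and 508 and 313 RPM in atprmt5-6, so that atprmt5-2 overlapped wild type and atprmt5-6 lay just below it. miR408-3p spread widely within groups, with 251 and 87.1 RPM in atprmt5-2 total and 145 and 21.2 RPM in atprmt5-6 AGO1-IP. In loading, the main limma fit called 0 of the 5 in each genotype, with 1 at an unadjusted p under 0.05 in wild type. It called 20.3%, 18.8% and 19.5% of all tested miRNAs lower in wild type, atprmt5-2 and atprmt5-6. With RPM rescaled to miRNA reads, limma called 3 of the 5, the miR157 guides of 1 sequence, lower in every genotype. On that scale 66.4%, 35.9% and 39.8% of all tested miRNAs were called lower. In wild type the replicate block gave the same 3 calls, and only the groups compared in the fit gave that of miR157a-5p. Those fits called 22.7% and 24.2% of all tested miRNAs lower. edgeR with TMM and DESeq2 each called the same 3 lower in every genotype. Over all tested miRNAs the share called lower in wild type, atprmt5-2 and atprmt5-6 was 26.6%, 28.1% and 28.9% with TMM and 26.6%, 25.8% and 25.8% with DESeq2.

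The miRNAs most like miR858 were found by the Pearson correlation of log2(RPM + 1), centred on the mean of each fraction, with the mean of the 2 guides over the 12 libraries. The libraries share genotypes and scaling, so these values describe likeness only. miR858a and miR858b correlated with each other at r = 0.96. Over the other 126 tested miRNAs r ran from -0.90 to 0.97 with a median of 0.40. The 5 highest were miR839-5p (r = 0.97), miR867 (0.95), miR319c (0.92), miR845a (0.91) and miR393b-3p (0.90).

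These 5 differed in abundance and in loading. miR867 was the nearest to miR858 in the size of its differences. Its wild-type total level was 56.4 ± 21.8 RPM, against 17.0 ± 1.63 RPM for atprmt5-2 and 19.6 ± 9.53 RPM for atprmt5-6 (SD, n = 2). miR839-5p was far more abundant and moved less, from 802 ± 116 RPM in wild-type total to 536 ± 12.6 and 538 ± 22.8 RPM. It went from 2973 ± 123 RPM in wild-type AGO1-IP to 2128 ± 54.9 and 2272 ± 5.11 RPM. miR393b-3p was nearly absent from AGO1-IP, at 10.9 ± 0.906 RPM in wild type against 245 ± 84.5 RPM in total. Among miRNAs of like profile, loading ran from -4.32 for miR393b-3p to 1.896 for miR839-5p on the log2 scale in wild type, against 0.33 and -0.09 for miR858a and miR858b.

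**Figure D5:**
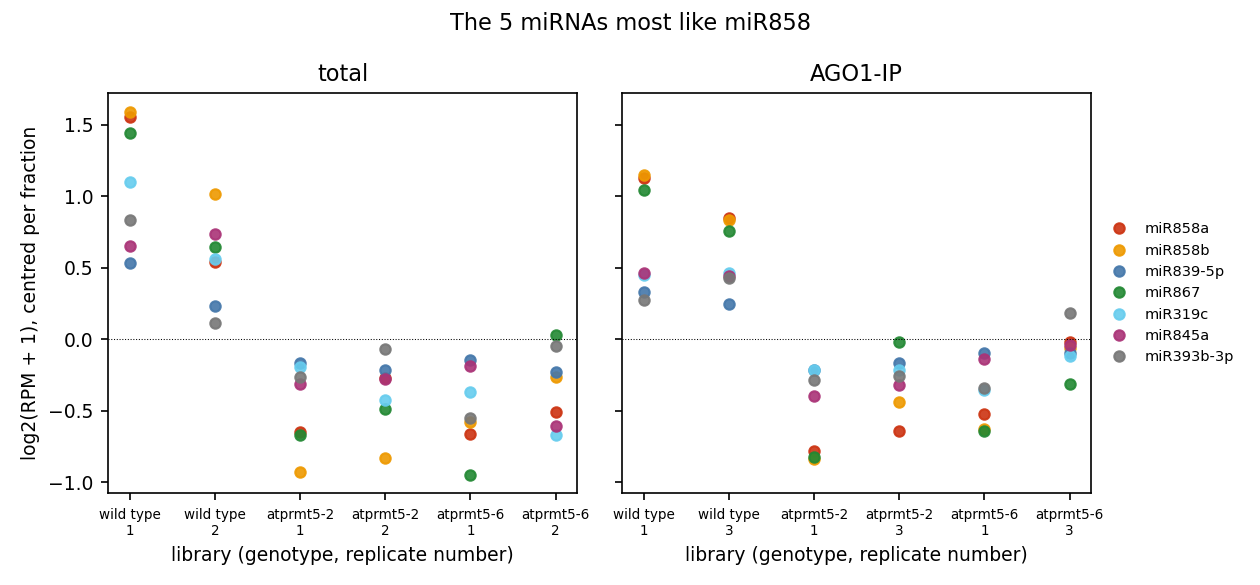
Log2(RPM + 1) centred on the mean of each fraction (vertical axis) in each library (horizontal axis, genotype and replicate number) for miR858a, miR858b and the 5 miRNAs that correlated most with them. Points are single libraries. All 7 miRNAs lie above 0 in the wild-type libraries of both fractions and near or below 0 in most mutant libraries.

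Reads of other lengths added nothing that could be compared. Of the 36 tables of 22, 23 and 24 nt reads, 35 listed neither guide. The exception is the 23 nt table of wild-type total replicate 1, whose values are those of the 21 nt table on another scale.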

How the data were processed

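The deposited tables hold RPM for 428 miRNAs, which the authors scaled to reads of 1 length, per the file headers. The submitters' processing notes name Trimmomatic 0.36, SAMtools 1.9, Bowtie2 and the build TAIR10; what each did and the mismatches allowed are not stated in the sources used here. All listed 21 nt values (100%) were whole multiples of 1 read within 0.01 reads, so reads were recovered, and missing values were taken as 0. The 12 libraries of 21 nt reads formed 6 groups by the labels. limma 3.58.1 was fitted to log2(RPM + 1) of 128 miRNAs of mean RPM of at least 5, with an intensity trend, 6 residual degrees of freedom, no block, and Benjamini-Hochberg adjustment with a threshold of 0.05; a fold change on this scale understates that of low miRNAs. It was checked on simulated reads. On recovered reads, edgeR 4.0.16 with the authors' denominators called 22 higher and 26 lower in wild-type loading, 46 and 24 in atprmt5-2 and 54 and 25 in atprmt5-6; edgeR with TMM and DESeq2 1.42.0 were further alternatives. Precursors were folded with RNAfold 2.7.2. Named miRNAs were miR858a and miR858b, every listed member of the MYB list and of the SPL and laccase list, the pollen pair and the 5 most alike. The members and lists were chosen with earlier results of these data known. The 22, 23 and 24 nt tables entered no test.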

Additional observations from a re-analysis of the deposited data

Results flagged for a closer look

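The 23 nt table of wild-type total replicate 1 listed miR858a at 107.6 RPM and miR858b at 49.4 RPM, a signal outside the 21 nt reads that were compared. All 195 miRNAs listed in that table had the read numbers of the 21 nt table of the same library, while the other 23 nt tables listed at most 8 miRNAs, so these values were not used as 23 nt reads.

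The log2 ratio of miR858a to miR858b differed between AGO1-IP and total in opposite directions, by 0.42 in wild type and 0.41 in atprmt5-6 and by -0.34 in atprmt5-2. It is listed because both AGO1-IP libraries lay above both total libraries in 2 genotypes and below them in the other. The difference between genotypes was not tested.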

How the results depend on the processing

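All values are log2 differences. Scaled to miRNA reads, loading of miR858a and miR858b turned to -1.19 and -1.61 in wild type, -1.23 and -0.89 in atprmt5-2 and -0.70 and -1.10 in atprmt5-6; miRNAs are 23.0% to 32.9% of 21 nt reads in total and 70.5% to 74.8% in AGO1-IP. Centred on the median miRNA, wild-type loading was 0.94 and 0.52, the allele difference of miR858a in total 0.13, mutant minus wild type in total -0.96 (miR858a) and -1.64 (miR858b) in atprmt5-2 and -0.84 and -0.93 in atprmt5-6, and loading differences -0.69 and 0.058, then -0.27 and -0.25. With edgeR and TMM, loading was -0.80 and -0.43 in atprmt5-2 and -0.083 and -0.50 in atprmt5-6, mutant minus wild type in total -0.98 and -1.68, then -1.11 and -1.16, and loading differences -0.89 and -0.14, then -0.17 and -0.21. With DESeq2, loading of miR858a in wild type was -0.059, loading -0.71 and -0.32 in atprmt5-2 and -0.063 and -0.48 in atprmt5-6, mutant minus wild type in total -0.99 and -1.71, then -1.12 and -1.19, and loading differences -0.65 and 0.13, then -0.0040 and -0.023. The cause of the remaining shifts was not tested.

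Leaving out 1 library at a time, loading of miR858a ran from -0.18 to 0.84 in wild type, -0.054 to 0.33 in atprmt5-2 and 0.46 to 0.96 in atprmt5-6, where its adjusted p was 0.0432 without wild-type total replicate 1 and 0.0429 without replicate 2. That of miR858b in wild type ran from -0.38 to 0.20, and the allele difference of miR858a in total from -0.32 to 0.062. In total, miR858a minus wild type ran from -2.01 to -0.997 in atprmt5-2 and -2.14 to -1.13 in atprmt5-6, and its loading difference from -0.70 to 0.31 and -0.13 to 0.88. A library left alone in its group is assumed to vary like the others. In AGO1-IP, mutant minus wild type moved by less than 1 SD for both guides under every alternative run.

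Deviations of same-numbered libraries correlated between genotypes at -0.10, -0.07 and 0.63 in total and 0.23, 0.35 and 0.64 in AGO1-IP, with 2 numbers in each group. The values over 0.1 in AGO1-IP, and that of 0.63 between the mutants in total, are a hint from the data of a shared replicate effect. The labels give no shared batch and total did not show one throughout, so the fit over both fractions was left without a block. With the replicate block, loading of miR858a in atprmt5-6 stayed at 0.71 (limma adjusted p = 0.108), no call of miR858 changed, and lower calls in total went from 16 to 28 in atprmt5-2 and 21 to 58 in atprmt5-6. In AGO1-IP, higher and lower calls went from 3 and 2 to 6 and 3 in atprmt5-2 and from 1 and 0 to 5 and 2 in atprmt5-6. The ratio by genotype is 0.21 with the block too; no such fit was possible by fraction, because the fractions share only number 1. Over the alternatives other than left-out libraries, counts of miRNAs called higher and lower ran from 4 to 60 and 23 to 85 in wild-type loading (26 and 26 as reported), from 3 to 55 and 24 to 46 in atprmt5-2 loading (47 and 24) and from 3 to 58 and 23 to 51 in atprmt5-6 loading (52 and 25). For mutant minus wild type they ran from 2 to 14 and 1 to 33 in atprmt5-2 total (4 and 16), 2 to 20 and 2 to 58 in atprmt5-6 total (5 and 21), 0 to 6 and 0 to 6 in atprmt5-2 AGO1-IP (3 and 2) and 0 to 5 and 0 to 2 in atprmt5-6 AGO1-IP (1 and 0). Between the alleles in total, up to 1 was called higher and 2 lower. Without wild-type total replicate 1, lower calls in total were 2 and 1. With 2 libraries a group, and 29 to 206 miR858 reads behind each total value, allele and loading differences are known no better than the intervals given with them.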
